A study of Mus musculus with 6 samples.

Results

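The genes described here pattern the pharyngeal arches along the dorsal-ventral axis. They are the ligand *Edn1*, its receptor *Ednra*, and the transcription factors *Dlx1*, *Dlx2*, *Dlx5*, *Dlx6*, *Hand1*, *Hand2*, *Msx1* and *Msx2*. They were taken by gene symbol, and all 10 were found among the 14647 genes of the deposited table. The libraries came from the pharyngeal region of *Pax9*-null (*Pax9*-/-) and wild-type (*Pax9*+/+) mouse embryos at E9.5, matched by somite number and on a C57Bl/6J background, with 3 embryos of each genotype. The null allele is constitutive, so that the mutation was not limited to the pharyngeal endoderm. Tissue was cut from the junction of the first arch with the second down to the base of the heart, so that the caudal arches were sampled and most of the first arch, the source of the jaws, was not. RNA was made from whole tissue by the methods of the study, whereas the sample labels name sorted cells and another library protocol; the methods of the study are followed here.

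Endothelin-1 is secreted by arch epithelium and core mesoderm and binds the endothelin A receptor on neural crest-derived mesenchyme. The receptor acts through Gq-family G proteins and phospholipase C beta, and the pathway switches on *Dlx5* and *Dlx6* in the ventral arch and, through them, *Hand2*. *Dlx1* and *Dlx2* are expressed along the whole axis, whereas *Hand* and *Msx* genes mark the ventral tip, where they also respond to BMP signals. *Hand1* and *Hand2* are in addition transcribed in the heart and pericardium, next to the dissected arches.

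Expression is given as log2 RPKM, the deposited value, where RPKM divides the reads of a gene by its length and by the size of the library. Genotypes were compared with limma over 13547 genes that averaged 0.5 RPKM or more, and a gene was called where its adjusted *P* did not exceed 0.1. The effective library sizes recovered from the values ran from 11509903 to 12692323 reads. *Pax9* itself fell by 1.32 on the log2 scale (adjusted *P*=0.0155, limma), with every *Pax9*-null library below every wild-type library. Its transcript was reduced and not absent, with 37 to 43 reads in *Pax9*-null and 99 to 123 in wild-type libraries. Wild-type replicate 3 stood apart in its content of heart muscle. The summed level of 8 cardiomyocyte genes was 78.3 RPKM in that library, 1257 and 1373 RPKM in the other wild-type libraries, and between 1130 and 1486 RPKM in the *Pax9*-null libraries. All 8 genes were lowest there, none was at 0, and *Nkx2-5*, a transcription factor of heart muscle, had 6 reads against 63 to 105 elsewhere. Over all tested genes, wild-type replicate 1 was most often the extreme library, lowest for 29.5% of genes and highest for 29.9%. The summed level of 8 neural crest mesenchyme genes was between 106.7 and 118.3 RPKM over the 6 libraries, and all 8 were detected in each. Within this list 6 genes had a log2 fold change below 0. *Twist1*, which contributed most to the sum, was called higher (0.35, limma adjusted *P*=0.0399) and *Sox10* was called lower (−0.59, limma adjusted *P*=0.0828). The summed level of 6 erythroid genes was higher in *Pax9*-null libraries (2567 to 4744 RPKM) than in wild-type libraries (2329 to 2417 RPKM), and the part of blood cells in the results was not tested.

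None of the 10 patterning genes was called between genotypes by limma, where 26.7% of all tested genes were. At an adjusted *P* of 0.05 none was called either, against 9.85% of all tested genes. The share over all genes depended on the processing. It fell to 329 of 13524 genes with trends of gene length and GC content removed, and of 13547 genes to 175 when *Pax9*-null replicate 3 was left out and 301 when replicate 1 of that genotype was. None of the 10 was called in these fits either. *Dlx6* alone had an unadjusted *P* under 0.05, against 35.1% of all tested genes. It was also the only one of the 10 whose libraries did not overlap between genotypes, against 41.9% of all tested genes (21.8% with the *Pax9*-null libraries above and 20.1% with them below). The log2 fold change of *Pax9*-null over wild-type was above 0 for 7 genes and below 0 for 3. It ran from −0.21 for *Dlx2* to 0.78 for *Dlx6*, with a median of 0.18, beside a median of 0.00 over all tested genes. With 1 library left out this median ran from 0.0048 (without *Pax9*-null replicate 3) to 0.27. The direction of *Edn1*, *Dlx1*, *Dlx2*, *Dlx5* and *Msx1* turned under at least 1 alternative processing, and that of the other 5 genes under none. Because the RNA came from bulk tissue, fewer cells of a type and less RNA per cell cannot be told apart.

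**Figure D1:**
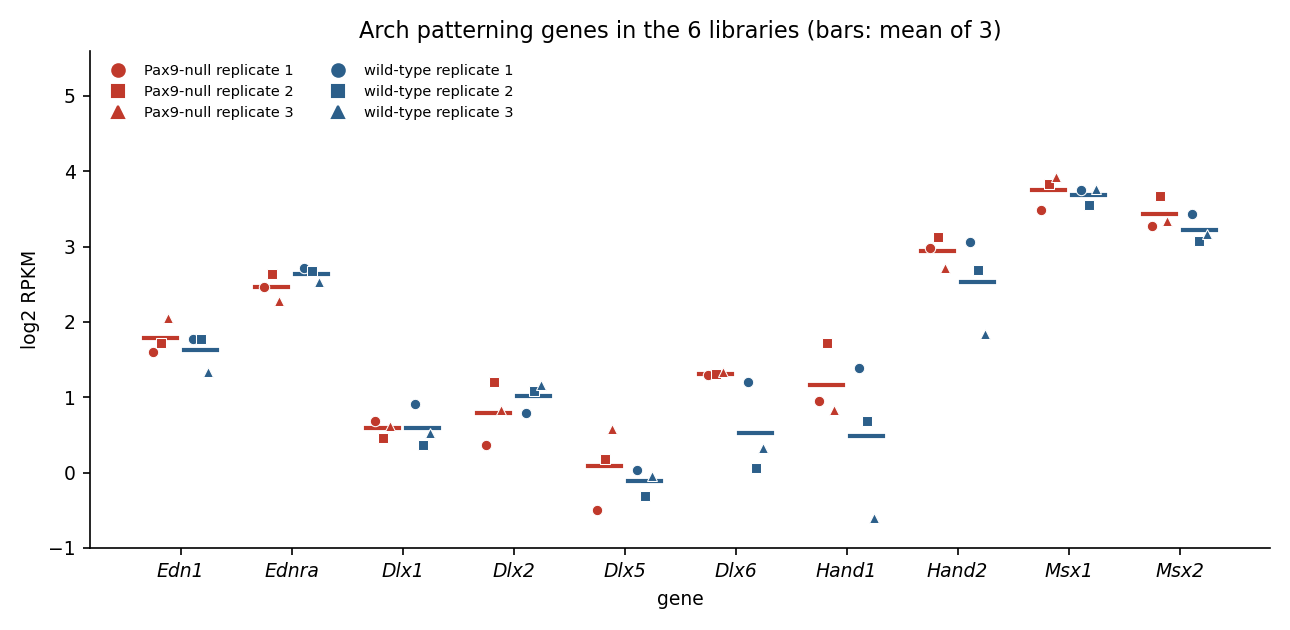
Log2 RPKM of the 10 patterning genes in each of the 6 libraries, with *Pax9*-null replicates in red, wild-type replicates in blue and bars at the mean of each genotype. The genotypes overlap for every gene other than *Dlx6*, and the lowest *Hand1*, *Hand2* and *Edn1* points belong to wild-type replicate 3.

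In wild-type embryos the *Msx* genes had the highest mean levels on the scale per gene length, with 3.69 ± 0.12 log2 RPKM (SD, *n*=3) for *Msx1* and 3.22 ± 0.19 for *Msx2*. *Ednra* (2.64), *Hand2* (2.53) and *Edn1* (1.63) followed, and then *Dlx2* (1.01), *Dlx1* (0.60), *Dlx6* (0.53), *Hand1* (0.49) and *Dlx5* (−0.11), each as the mean log2 RPKM. The libraries of *Ednra* and *Hand2* overlapped, as did those of each neighbouring pair from *Dlx2* down to *Dlx5*, so that these orders are not larger than the spread between embryos. The steps from *Msx1* to *Msx2*, *Msx2* to *Ednra*, *Hand2* to *Edn1* and *Edn1* to *Dlx2* were free of overlap.

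*Edn1*, the ligand (ENSMUSG00000021367, chr13:42301476-42307990, plus strand, GRCm38), measured 1.60, 1.71 and 2.06 log2 RPKM in *Pax9*-null replicates 1 to 3 and 1.77, 1.77 and 1.34 in the wild-type replicates. The highest value was that of *Pax9*-null replicate 3 and the lowest that of wild-type replicate 3, with the other 4 libraries close together. *Edn1* had a log2 fold change of 0.17 (SE 0.19, 95% confidence interval −0.27 to 0.60, limma adjusted *P*=0.551), on 74 to 114 reads per library. Without wild-type replicate 3 it was 0.02 (limma adjusted *P*=0.947).

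*Ednra*, the receptor (ENSMUSG00000031616, chr8:77663031-77724464, minus strand), measured 2.47, 2.64 and 2.28 log2 RPKM in *Pax9*-null embryos and 2.72, 2.67 and 2.53 in wild-type embryos. Only *Pax9*-null replicate 2 lay within the wild-type range, and the other *Pax9*-null libraries lay below it. For *Ednra* the log2 fold change was −0.18 (SE 0.13, 95% confidence interval −0.48 to 0.13, limma adjusted *P*=0.362), on 312 to 456 reads. The receptor exceeded the ligand in every library. The log2 difference of *Ednra* minus *Edn1* was 0.67 ± 0.39 in *Pax9*-null and 1.01 ± 0.15 in wild-type embryos (SD, *n*=3 each), with overlapping libraries.

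The *Dlx* genes lie in convergent pairs that share regulatory DNA, *Dlx1* with *Dlx2* on chromosome 2 and *Dlx5* with *Dlx6* on chromosome 6. *Dlx1* (chr2:71528113-71533981, plus strand), which is expressed in both the upper and the lower arch, measured 0.69, 0.46 and 0.62 log2 RPKM in *Pax9*-null embryos and 0.91, 0.36 and 0.52 in wild-type embryos. The *Pax9*-null libraries lay wholly inside the wild-type range, and the log2 fold change was −0.01 (SE 0.20, 95% confidence interval −0.47 to 0.46). *Dlx2* (chr2:71543408-71546754, minus strand) measured 0.36, 1.20 and 0.83 log2 RPKM in *Pax9*-null embryos and 0.79, 1.08 and 1.16 in wild-type embryos. *Pax9*-null replicates 1 and 2 lay on either side of the wild-type range, and the log2 fold change was −0.21 (SE 0.24, 95% confidence interval −0.77 to 0.34). The adjusted *P* by limma was 0.984 for *Dlx1* and 0.555 for *Dlx2*, on 85 to 128 and 42 to 80 reads per library.

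*Dlx5* (ENSMUSG00000029755, chr6:6877805-6882085, minus strand), a direct read-out of endothelin signalling in the ventral arch, was the lowest of the 10 genes. It measured −0.50, 0.18 and 0.57 log2 RPKM in *Pax9*-null embryos and 0.04, −0.31 and −0.05 in wild-type embryos. The *Pax9*-null libraries spread on both sides of the wild-type range. Its log2 fold change was 0.19 (SE 0.30, 95% confidence interval −0.50 to 0.88, limma adjusted *P*=0.679). Only 18 to 39 reads per library stood behind these values.

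*Dlx6* (ENSMUSG00000029754, chr6:6863334-6868568, plus strand), its partner in the lower arch, measured 1.29, 1.30 and 1.34 log2 RPKM in *Pax9*-null embryos and 1.21, 0.06 and 0.33 in wild-type embryos. The *Pax9*-null libraries agreed closely, with an SD of 0.02 against 0.60 in wild-type embryos, and wild-type replicate 1 lay just below them. *Dlx6* had a log2 fold change of 0.78 (SE 0.29, 95% confidence interval 0.11 to 1.45), which is 1.72-fold (1.08 to 2.73), with a limma adjusted *P* of 0.101. The two-sided exact permutation test gave *P*=0.1, the smallest that 3 libraries against 3 allow. Without wild-type replicate 1 the log2 fold change was 1.12 and *Dlx6* was called (limma adjusted *P*=0.0207). The fits without any other library gave an adjusted *P* of up to 0.249. Reads ran from 67 to 70 in *Pax9*-null and from 30 to 69 in wild-type libraries.

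Within each embryo *Dlx6* exceeded *Dlx5*. The log2 difference of *Dlx6* minus *Dlx5* was 1.80, 1.13 and 0.77 in *Pax9*-null embryos and 1.17, 0.37 and 0.38 in wild-type embryos. The values of the genotypes overlapped, as those of *Dlx2* minus *Dlx1* did (0.21 ± 0.53 in *Pax9*-null and 0.41 ± 0.46 in wild-type embryos, SD, *n*=3 each). The log2 profiles closest to that of *Dlx6*, by the root mean square distance of centred values over the 6 libraries, were those of *Gm21967* (0.19) and *Esm1* (0.19), an endothelial proteoglycan.

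*Hand1* (ENSMUSG00000037335, chr11:57828705-57832818, minus strand) measured 0.94, 1.72 and 0.82 log2 RPKM in *Pax9*-null embryos and 1.39, 0.68 and −0.60 in wild-type embryos. *Hand2* (ENSMUSG00000038193, chr8:57320983-57324633, plus strand), the main effector of endothelin signalling in the ventral arch, measured 2.98, 3.13 and 2.72 log2 RPKM in *Pax9*-null embryos and 3.06, 2.68 and 1.84 in wild-type embryos. For both genes wild-type replicate 3 was the lowest of the 6 libraries, and the other 5 overlapped between genotypes.

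The log2 fold change was 0.67 for *Hand1* (SE 0.49, 95% confidence interval −0.46 to 1.80, limma adjusted *P*=0.353) and 0.42 for *Hand2* (SE 0.29, −0.26 to 1.09, limma adjusted *P*=0.334). Without wild-type replicate 3 it was 0.13 for *Hand1* (−0.63 to 0.88, limma adjusted *P*=0.818) and 0.07 for *Hand2* (−0.34 to 0.48, limma adjusted *P*=0.813). Without wild-type replicate 1 it was 1.12 for *Hand1* and 0.68 for *Hand2*, with adjusted *P* values of 0.134 and 0.129 by limma. Wild-type replicate 3 was also the library low in heart muscle, and the summed level of 5 pericardium and proepicardium genes was lowest in it, at 16.0 RPKM against 22.1 to 32.4 RPKM elsewhere. Of these 5 genes, 3 were lowest in wild-type replicate 3. The summed level of 5 second heart field and outflow genes was 25.7 RPKM in it, within the 25.5 to 27.7 RPKM of the other libraries. The part of the heart content in the *Hand* values was not tested.

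**Figure D2:**
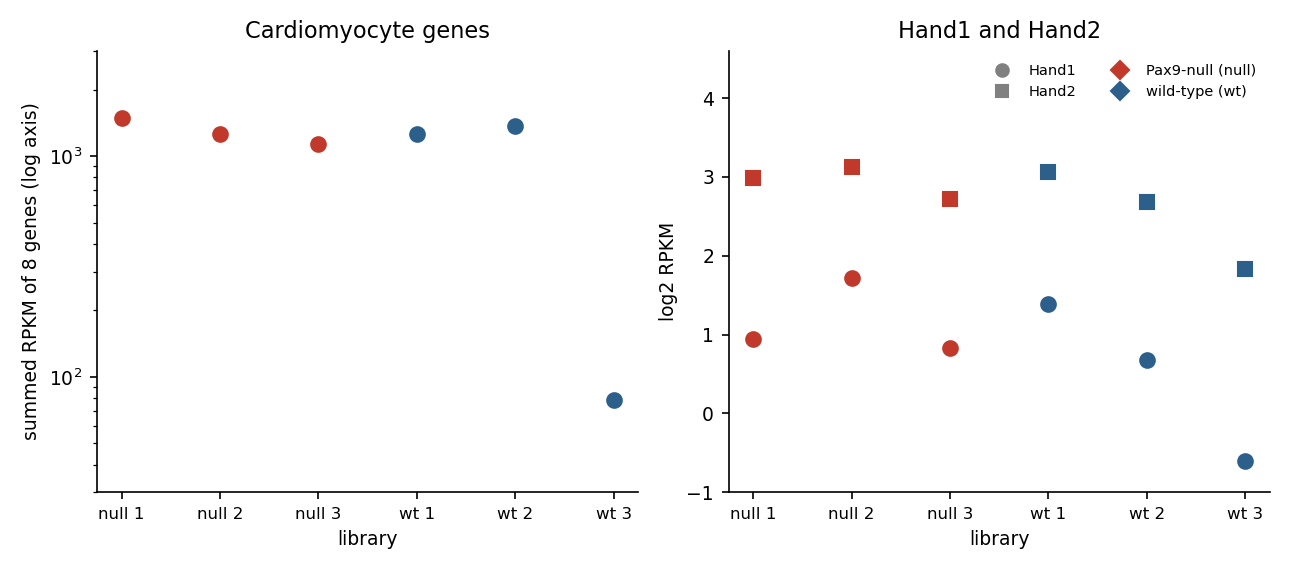
Summed RPKM of 8 cardiomyocyte genes on a log axis (left) and log2 RPKM of *Hand1* (circles) and *Hand2* (squares, right) in each library, with *Pax9*-null in red and wild-type in blue. Wild-type replicate 3 is lowest in both panels, at 78.3 RPKM for the heart genes and at −0.60 and 1.84 log2 RPKM for *Hand1* and *Hand2*.

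The log2 difference of *Hand2* minus *Hand1* within a library was 2.04, 1.41 and 1.89 in *Pax9*-null embryos and 1.67, 2.0 and 2.44 in wild-type embryos. *Hand2* was thus the more abundant in all 6 libraries, and the genotypes overlapped. Spread within genotypes was taken as an SD on the log2 scale from the mean variance of both genotypes. That of *Hand1* (0.79) was larger than that of 98.1% of tested genes, and that of *Hand2* (0.47) was larger than that of 91.7%. The SD was 0.48 in *Pax9*-null and 1.01 in wild-type embryos for *Hand1*, and 0.21 and 0.63 for *Hand2*.

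The sequence before the start of *Hand2* is shown because this gene is the pathway's main effector and because the span of an antisense transcript, *Hand2os1*, includes it. It covers the 250 bases upstream of the start (chr8:57320733-57320982, plus strand, GRCm38.p6, from RefSeq). Capitals mark matches to the homeodomain word TAATTA, which *Dlx* and *Msx* proteins can bind, and to the GATA words (AGATAA, then TGATAA, also AGATAG and lastly TGATAG), searched on both strands.
Hand2: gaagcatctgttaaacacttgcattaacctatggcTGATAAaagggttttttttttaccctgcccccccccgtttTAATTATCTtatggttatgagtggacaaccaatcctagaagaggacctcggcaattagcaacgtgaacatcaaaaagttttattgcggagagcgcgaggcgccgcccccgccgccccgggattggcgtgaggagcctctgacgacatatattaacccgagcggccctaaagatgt
One TAATTA and 2 GATA words were found, the second of which overlaps the TAATTA. Of 32851 RefSeq promoters of this length, 4.84% hold TAATTA and 26.5% a GATA word. A promoter was matched for 7 of the 10 genes, the exceptions being *Dlx5*, *Dlx6* and *Hand1*, and of the 7 only those of *Hand2* and *Msx2* held TAATTA. A match is a description of the letters and not evidence of binding.

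*Msx1* (ENSMUSG00000048450, chr5:37820485-37824583, minus strand), a homeobox gene of distal arch mesenchyme, measured 3.49, 3.83 and 3.92 log2 RPKM in *Pax9*-null embryos and 3.75, 3.55 and 3.77 in wild-type embryos. The *Pax9*-null libraries lay on both sides of the wild-type range. Its log2 fold change was 0.06 (SE 0.13, 95% confidence interval −0.25 to 0.37, limma adjusted *P*=0.774), on 403 to 550 reads. *Msx2* (ENSMUSG00000021469, chr13:53466884-53473074, minus strand), its paralogue in the same cells, measured 3.27, 3.67 and 3.34 log2 RPKM in *Pax9*-null embryos and 3.43, 3.07 and 3.16 in wild-type embryos. Wild-type replicate 1 lay among the *Pax9*-null values, and the other wild-type libraries lay below them. For *Msx2* the log2 fold change was 0.21 (SE 0.14, 95% confidence interval −0.13 to 0.54, limma adjusted *P*=0.333), on 340 to 479 reads. *Msx1* exceeded *Msx2* in all 6 libraries, by 0.17 to 0.60 on the log2 scale. Of the 10 genes, *Ednra*, *Msx1* and *Msx2* had the narrowest spread within genotypes (SD 0.14 to 0.20). The 95% confidence intervals of 7 of the 10 genes exclude a log2 fold change of 1 in either direction, and those of *Dlx6*, *Hand1* and *Hand2* do not.

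**Figure D3:**
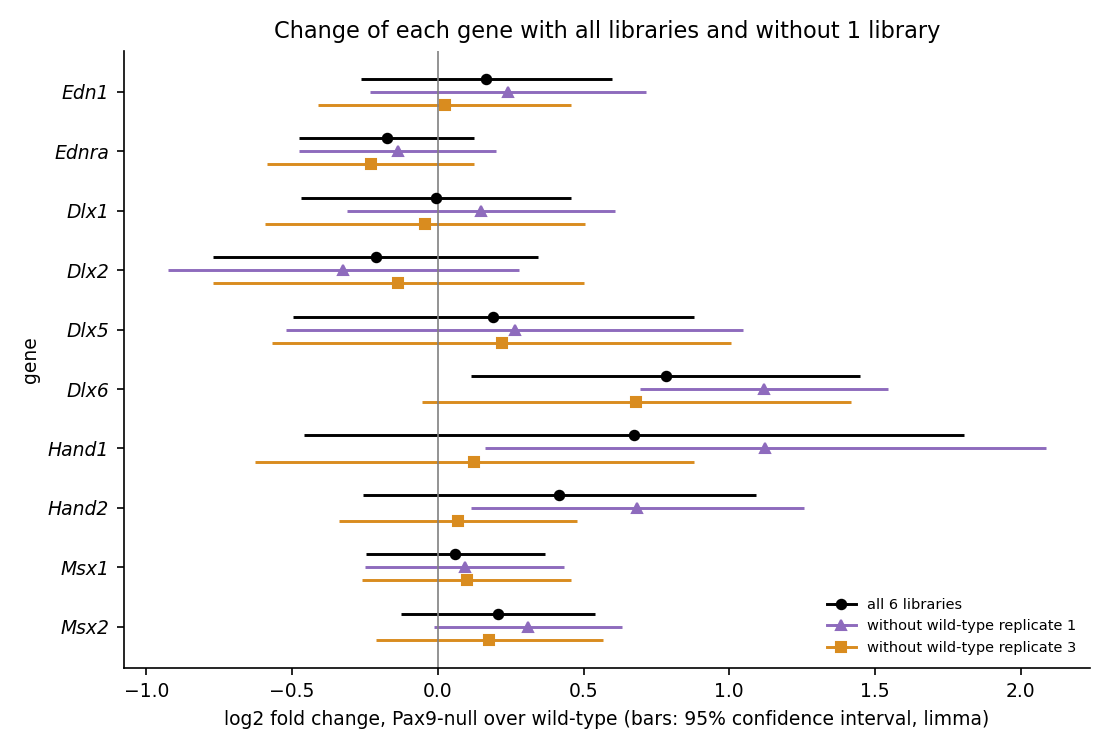
Log2 fold change of *Pax9*-null over wild-type for the 10 patterning genes by limma, with 95% confidence intervals, from all 6 libraries (black), without wild-type replicate 1 (purple) and without wild-type replicate 3 (orange). *Hand1* and *Hand2* move towards 0 without wild-type replicate 3, to 0.13 and 0.07, and *Dlx6* moves to 1.12 without wild-type replicate 1.

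Of 39 other genes of the pathway and of the arch regions it controls, 29 were tested and 6 were called, 3 higher and 3 lower, beside 14.7% higher and 12.0% lower over all tested genes. Their median log2 fold change was −0.20. With trends of gene length and GC content removed, only *Hes1* of the 6 was called, and the log2 fold change was −0.23 for *Furin*, −0.31 for *Plcb3* and 1.35 for *Barx1* (limma adjusted *P*=0.439, 0.235 and 0.126). Without *Pax9*-null replicate 3 none of the 29 was called, and without *Pax9*-null replicate 1 only *Barx1* was. *Edn2*, *Plcb2*, *Dlx4*, *Gsc* and *Nkx3-2* were among the genes not analysed here.

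Of 5 tested genes for other endothelins, the endothelin B receptor and processing enzymes, 1 was called lower and none higher. Over all tested genes 12.0% were called lower and 14.7% higher. The called gene was *Furin*, a proprotein convertase that cleaves the endothelin precursor. It measured 0.50, 1.14 and 0.88 log2 RPKM in *Pax9*-null embryos and 1.87, 1.56 and 1.35 in wild-type embryos. It fell by 0.75 on the log2 scale (SE 0.22, limma adjusted *P*=0.0629), and it was not called without *Pax9*-null replicate 1 (0.206) or 3 (0.149). *Ece1*, the enzyme that makes the active peptide, measured 2.66, 3.47 and 2.94 against 4.74, 3.73 and 3.40 log2 RPKM, with a log2 fold change of −0.93 (SE 0.35, limma adjusted *P*=0.102). For both genes wild-type replicate 1 was the highest library. The summed level of 6 endothelial genes was also highest in that library, at 87.0 RPKM against 37.7 to 53.0 RPKM in the others, and its part in these differences was not tested. Without wild-type replicate 1 the adjusted *P* by limma was 0.135 for *Furin* and 0.171 for *Ece1*.

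Of 6 tested genes for the Gq route and its target *Mef2c*, 1 was called lower, beside 12.0% over all tested genes. The median log2 fold change of the 6 was −0.31. *Plcb3*, a phospholipase C beta, measured 2.48, 2.68 and 2.57 log2 RPKM in *Pax9*-null embryos and 3.71, 3.10 and 3.15 in wild-type embryos. It fell by 0.74 on the log2 scale (SE 0.17, limma adjusted *P*=0.043), and it was called without wild-type replicate 1 as well (0.0504) but not without *Pax9*-null replicate 1 (0.169) or 3 (0.128). *Plcb4*, the isoform tied to arch endothelin signalling, had a log2 fold change of −0.49 (limma adjusted *P*=0.123) and *Mef2c* one of 0.12 (limma adjusted *P*=0.696). *Mef2c* was lowest in wild-type replicate 3, the library low in heart muscle, at 2.07 log2 RPKM against 2.48 to 2.78 in the others. The part of the heart content in the *Mef2c* values was not tested. Of the 2 further *Dlx* and *Msx* genes tested neither was called, and *Dlx3* had the larger log2 fold change, −0.34 (limma adjusted *P*=0.298).

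Of 8 tested genes of the lower and intermediate arch, 1 was called higher and 1 lower, against 14.7% and 12.0% over all tested genes. *Barx1*, a homeobox gene of tooth-forming and proximal arch mesenchyme (chr13:48662998-48666507), measured 2.94, 3.50 and 3.85 log2 RPKM in *Pax9*-null embryos and 2.60, 1.63 and 1.81 in wild-type embryos. All *Pax9*-null libraries lay above all wild-type libraries, on 53 to 236 reads. The log2 fold change was 1.42 (SE 0.30, limma adjusted *P*=0.0398), which is 2.68-fold (95% confidence interval 1.65 to 4.34). It was called in each fit that left out 1 library except that without *Pax9*-null replicate 3 (limma adjusted *P*=0.128). *Gbx2* fell by 0.43 on the log2 scale (limma adjusted *P*=0.0807), and in none of the 6 fits that left out 1 library was it called. The study also found *Gbx2* lower in *Pax9*-null embryos by qPCR of pharyngeal tissue and by in situ hybridisation in the endoderm.

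Of 6 tested genes of the upper arch, 1 was called higher, against 14.7% of all tested genes. *Hes1*, a transcriptional repressor downstream of Notch, measured 5.12, 5.30 and 5.02 log2 RPKM in *Pax9*-null embryos and 4.47, 4.88 and 4.64 in wild-type embryos. The genotypes did not overlap, and the log2 fold change was 0.48 (SE 0.12, limma adjusted *P*=0.0501). It was not called without *Pax9*-null replicate 1 (0.173) or 3 (0.128). Wild-type replicate 1 was the lowest library for *Hes1*, and without it the log2 fold change was 0.39 (limma adjusted *P*=0.0932). The summed level of 6 neural tube genes was also lowest in that library, at 40.4 RPKM against 67.65 to 75.74 RPKM in the others. The part of neural tissue in the *Hes1* values was not tested. *Jag1*, the Notch ligand of the upper arch, had a log2 fold change of −0.21 (limma adjusted *P*=0.178).

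**Figure D4:**
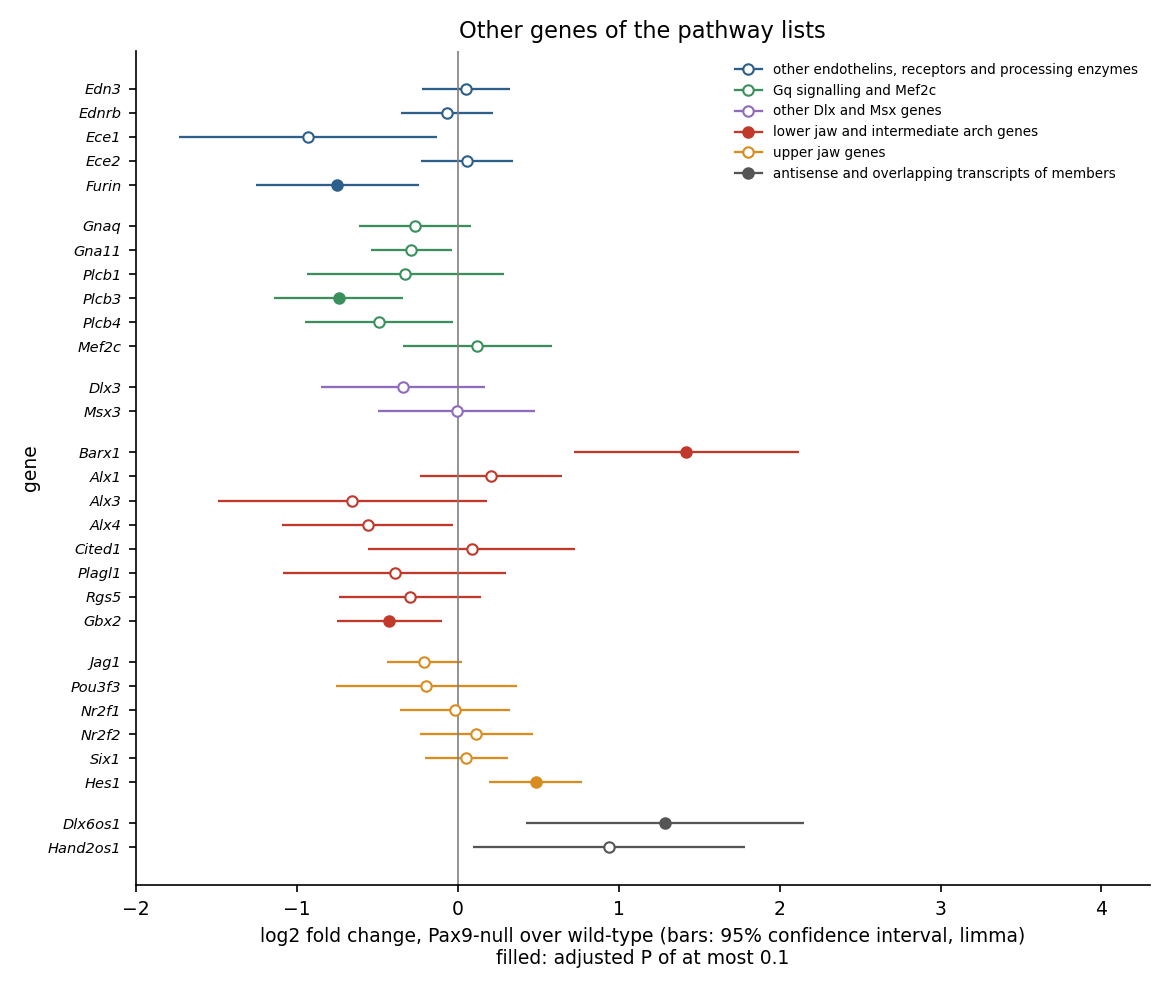
Log2 fold change of *Pax9*-null over wild-type by limma, with 95% confidence intervals, for the 29 tested genes of the pathway lists, coloured by list. Filled points are the 6 called genes, of which *Barx1*, *Hes1* and *Dlx6os1* are higher and *Furin*, *Plcb3* and *Gbx2* lower.

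Noncoding transcripts opposite the patterning genes were taken by gene identifier. *Dlx6os1* (chr6:6820189-6871592, minus strand), a long noncoding RNA transcribed across *Dlx6*, measured 1.33, 1.34 and 1.87 log2 RPKM in *Pax9*-null embryos and 0.94, −0.59 and 0.33 in wild-type embryos. Every *Pax9*-null library lay above every wild-type library, and the lowest values were in wild-type replicates 2 and 3, as for *Dlx6*. The log2 fold change was 1.29 (SE 0.37, limma adjusted *P*=0.062), which is 2.44-fold (95% confidence interval 1.34 to 4.44). It was not called without *Pax9*-null replicate 1 (0.182) or 3 (0.175). *Dlx6os1* shares 0 exon bases with *Dlx6* in GENCODE M21. Counting took no account of strand, as far as the methods state, so that unspliced RNA of either transcript that crosses an exon of the other would be counted with that gene.

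*Hand2os1* (listed as *AV026068*, chr8:57281117-57324233, minus strand) starts inside *Hand2* and runs back across the start of that gene. It measured 2.67, 2.05 and 2.40 log2 RPKM in *Pax9*-null embryos and 2.10, 1.60 and 0.59 in wild-type embryos. The libraries overlapped, and wild-type replicate 3 was lowest, as for *Hand2*. Its log2 fold change was 0.94 (SE 0.36, limma adjusted *P*=0.113), and without wild-type replicate 3 it was 0.52 (limma adjusted *P*=0.171). In GENCODE M21 it shares 461 exon bases with *Hand2*, 19.6% of the exon bases of *Hand2*. The deposited *AV026068* values, however, gave whole reads at a length of 1879 bases, against 12840 bases in GENCODE M21, so that another gene model was counted and its overlap with *Hand2* is not known. *4933431K23Rik*, opposite *Ednra*, measured −1.67, −1.27 and −1.35 log2 RPKM in *Pax9*-null embryos and −1.65, −1.76 and −2.42 in wild-type embryos. It was below the limit for testing (12 to 25 reads), and the genotypes overlapped. In GENCODE M21, shared exon bases with an antisense gene made up 6.21% of *Dlx1*, 4.38% of *Dlx6*, 1.66% of *Ednra* and 1.64% of *Edn1*.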

How the data were processed

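RNA was sequenced from the pharyngeal region of 6 E9.5 embryos, 3 *Pax9*-null and 3 wild-type. Per the methods of the study, the authors trimmed adaptors with Trimmomatic 0.32, kept unique and non-redundant reads, sub-sampled the libraries towards the smallest, aligned with STAR 2.5.1a to GRCm38 and counted reads with featureCounts 1.5.1. Versions are from the submitters' processing notes, and the methods give another version of STAR. The deposited values are log2 RPKM, made by the authors. A prior count of 0.5 was assumed for them as a fixed setting. The effective library sizes and the read numbers given here rest on that assumption. Whole reads (within 0.05) were recovered for 82.7% of values at GENCODE M21 gene lengths, and otherwise at the nearest length that gave whole reads. These reads describe depth only.

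Genotypes were compared with limma 3.58.1 in R 4.3.3 (two-sided, variance trend, Benjamini-Hochberg adjustment over 13547 genes averaging 0.5 RPKM or more). This stood in for voom, which needs counts. The fit was tested on simulated data. The labels do not tie replicate numbers to litters, so genotypes were compared without pairing. An exact permutation test of single genes cannot go below 0.1. The patterning genes and all lists were chosen with earlier results of these data known. Named genes were all patterning genes, called pathway genes, the largest change in each list, antisense transcripts in the table, and the 2 profiles closest to the most changed patterning gene. *Twist1*, *Sox10*, *Nkx2-5*, *Plcb4*, *Mef2c*, *Jag1* and *Msx3* were named after their values were seen. Alternatives were other pseudocounts, filters, scalings, weights, a replicate block, a threshold of 0.05 and leaving out each library.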

Additional observations from a re-analysis of the deposited data

How the results depend on the processing

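Of 164 log2 fold changes of the 10 patterning genes under 17 alternatives, 150 kept their direction and 5 were called, all of them of *Dlx6*. The number called was 1 in place of 0 with 0.1 or 1 added to RPKM, with centring on library medians and with library weights, and it ran from 0 to 1 with 1 library left out. The median log2 fold change of the 10 genes ran from 0.0048 (without *Pax9*-null replicate 3) to 0.27 with 1 library left out. Removing trends with gene length and GC content turned *Edn1* to −0.12, *Dlx1* to 0.29 and *Dlx2* to 0.0062, with or without the replicate block, a combination chosen after seeing the data. *Dlx1* also turned to 0.0281 with centring and 0.0946 with weights. With 1 library left out, *Dlx1* ran from −0.126 to 0.149, *Dlx2* from −0.415 to 0.0040, *Dlx5* from −0.0556 to 0.483 and *Msx1* from −0.0260 to 0.189, each crossing 0. The number of pathway genes called was 6, and 1 (*Hes1*) with the length and GC trends removed, with or without the replicate block. It was 2 at an adjusted *P* of at most 0.05, and ran from 0 (without *Pax9*-null replicate 3) to 7 with 1 library left out, with 1 without *Pax9*-null replicate 1. Over all genes 3611 were called, 329 with the trends removed, 1335 at 0.05 and 175 to 3578 with 1 library left out. The causes were not tested.

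With the replicate block 1377 genes were called over all, and 188 with the trends removed as well. *Dlx6* then had an adjusted *P* of 0.125 by limma, and none of the 10 genes was called. Deviations of same-numbered libraries correlated at −0.02, −0.17 and 0.26. These values cannot show whether the numbers pair the samples, because the labels record no litter or batch. *Dlx5* had 18 to 39 reads per library, and the fewest for any of the 10 genes were 16, for *Hand1* in wild-type replicate 3.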
